A study of Mus musculus with 12 samples.

Results

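Cholesterol synthesis, uptake and export was followed through 33 genes in mouse embryoid bodies, the aggregates that embryonic stem cells form when left to differentiate in suspension. The genes were picked by symbol for their known roles, and each had a row among the 24015 gene rows counted. They comprised 19 synthesis enzymes, 4 genes that control the transcription factor SREBP2, and 10 genes of sterol uptake, transport inside the cell, export and storage. Of the 33, 32 had counts and passed the filter on low counts. Hmgcs1, the cytosolic enzyme that makes HMG-CoA, was listed at 0 in all 12 libraries and was not tested. Nearly every cell transcribes this gene, so the 0 may not measure its RNA; whether the annotation or the counting gave it was not tested.

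Cells build cholesterol from acetyl-CoA, first through mevalonate to farnesyl pyrophosphate and then through squalene and lanosterol. SREBP2, the product of Srebf2, switches on most of these enzymes together with lipoprotein receptors when sterols in the endoplasmic reticulum run low; SCAP carries it to the Golgi for cleavage, and INSIG proteins hold it back when sterols are plentiful. The liver X receptors, encoded by Nr1h2 and Nr1h3, respond to oxidised sterols and switch on the exporters Abca1 and Abcg1. Early mouse embryos need this pathway, and the Hedgehog signal carries a cholesterol group.

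The groups compared numbered 4, with 3 libraries each: Trim33-deficient and control bodies on day 2.5, and Trim33-deficient and control bodies on day 2. Trim33 encodes a chromatin-binding protein of the TRIM family that partners SMAD proteins. In every group the cells descended from stem cell lines of outbred embryos homozygous for a floxed Trim33 allele and carrying UbcCreERT2, a Cre recombinase that is driven by a ubiquitous promoter and activated by tamoxifen. The lines were used at passages 8 to 10, kept without feeders in LIF and 2i, and left to aggregate in low-attachment dishes; 4OH-tamoxifen was added on day 1, at 24 hours, to induce the loss of Trim33. The labels call the control genotype wildtype, and no label states whether control cultures were given tamoxifen as well. Independent pairs are mentioned without saying which replicate numbers, if any, belong together, so each p-value reflects only how much these libraries vary. In such bulk samples, fewer cells of a type and less RNA per cell cannot be told apart.

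Libraries held 10066338 to 16529627 counts assigned to genes. Trim33 averaged 66 ± 4.88 CPM in Trim33-deficient bodies and 271 ± 8.55 CPM in control bodies on day 2, and 58.3 ± 4.23 CPM in Trim33-deficient bodies and 249.8 ± 12.8 CPM in control bodies on day 2.5 (SD, n = 3 each); CPM are counts scaled to a common library size after TMM normalisation. Among the libraries, 3 stood apart. The ribosomal RNA row Rn45s held 7.87% of the counts of Trim33-deficient replicate 1 on day 2 and 11.9% of those of control replicate 2 on day 2.5, where the other 10 libraries held 0.609 to 1.67%. A list of 15 tested hypoxia and glycolysis genes averaged 0.63 log2 units above its mean over all libraries in control replicate 2 of day 2 and 0.35 above it in that of day 2.5, while the other 10 libraries ranged over -0.36 to 0.11. All 6 pluripotent and epiblast markers were detected, with a summed level of 1787 to 1912 CPM in Trim33-deficient and 1971 to 2060 CPM in control libraries on day 2, and of 1528 to 1661 CPM in Trim33-deficient and 1684 to 1779 CPM in control libraries on day 2.5. Of 12 primitive and visceral endoderm markers 9 passed the filter, and the summed level was 34.2 to 37.1 CPM in Trim33-deficient and 34.9 to 39.3 CPM in control libraries on day 2, and 36.2 to 38.6 CPM in Trim33-deficient and 39.7 to 51.4 CPM in control libraries on day 2.5. The defining endoderm products Ttr and Afp were at or near 0. The mean log2 deviation of the same endoderm list, in which each gene weighs equally, was -0.01 to 0.10 in Trim33-deficient and -0.22 to -0.09 in control libraries on day 2, and 0.05 to 0.27 in Trim33-deficient and -0.17 to 0.05 in control libraries on day 2.5. On day 2.5, Sox17 (log2 fold change 1.84), Hnf4a (1.62) and Gata6 (1.20) rose and Dab2 (-0.60) and Amn (-0.61) fell. The genes that rose were at low levels, where a count of 3 corresponds to 0.181 to 0.298 CPM. Sox17 averaged 1.02 CPM in Trim33-deficient and 0.283 CPM in control bodies, Hnf4a 0.825 and 0.267 CPM, and Gata6 1.16 and 0.498 CPM. Dab2 averaged 18.1 and 27.4 CPM and Amn 1.92 and 2.95 CPM. The 3 primitive streak markers summed to 14.6 to 14.8 CPM in Trim33-deficient and 15.3 to 19.8 CPM in control libraries on day 2, and to 11.9 to 17.1 CPM in Trim33-deficient and 22.7 to 31.8 CPM in control libraries on day 2.5. The 6 fibroblast markers, 5 of which passed the filter, summed to 25.0 to 29.3 CPM in Trim33-deficient and 30.2 to 37.4 CPM in control libraries on day 2, and to 22.5 to 25.5 CPM in Trim33-deficient and 35.0 to 43.9 CPM in control libraries on day 2.5. Lum, a fibroblast marker, was at 0 in every control library. The sums of pluripotent and epiblast, streak and fibroblast markers did not overlap between genotypes on either day, and those of endoderm markers did not on day 2.5. Each of these sums was lower in Trim33-deficient libraries. The sums hide differences between markers. On day 2.5, 2 of 6 pluripotent and epiblast markers rose and 2 fell (33.3% each). Of 5 tested fibroblast markers 1 rose and 3 fell, and of 3 streak markers 0 rose and 2 fell. Of all genes tested, 22.0% rose and 20.7% fell on that day. On day 2, 0 pluripotent, epiblast or streak markers passed an adjusted p of 0.05. On that day 1 fibroblast marker fell (20.0%), where 3.90% of all genes did. The part of these cell types in the results that follow was not tested.

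Most synthesis enzymes were higher in Trim33-deficient than in control bodies on both days. The smallest adjusted p-values were those of Cyp51, Sqle and Msmo1, which act on lanosterol, on squalene and on lanosterol's methylated products. On day 2, 17 of the 32 members tested rose (53.1%) and 0 fell, where 5.94% of all 14356 genes tested rose and 3.90% fell. Passing meant an adjusted p under 0.05 in edgeR's quasi-likelihood test, with Benjamini-Hochberg adjustment over every gene tested. No member was lower on day 2 at an unadjusted p under 0.05 either, and DESeq2 also gave 0. On day 2.5, 20 members rose (62.5%) and 2 fell (6.25%), where 22.0% of all genes rose and 20.7% fell. The median log2 fold change over the members was 0.31 on day 2 and 0.40 on day 2.5, where that over all genes was 0.00 and -0.01. The members higher on both days numbered 15, while Tm7sf2 and Lrp8 passed on day 2 alone and Acat2, Mvd, Sc5d, Scap and Abca1 on day 2.5 alone. The day 2 counts varied with the libraries used. Without day 2 control replicate 3 the members that rose numbered 9, and without day 2 Trim33-deficient replicate 2 they numbered 10. Genes of the whole table past the threshold in either direction then numbered 564 and 795, against 1413 with all libraries. Without the 3 libraries that stood apart, 21 members rose on day 2, and 22 rose and 2 fell on day 2.5.

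**Figure D1:**
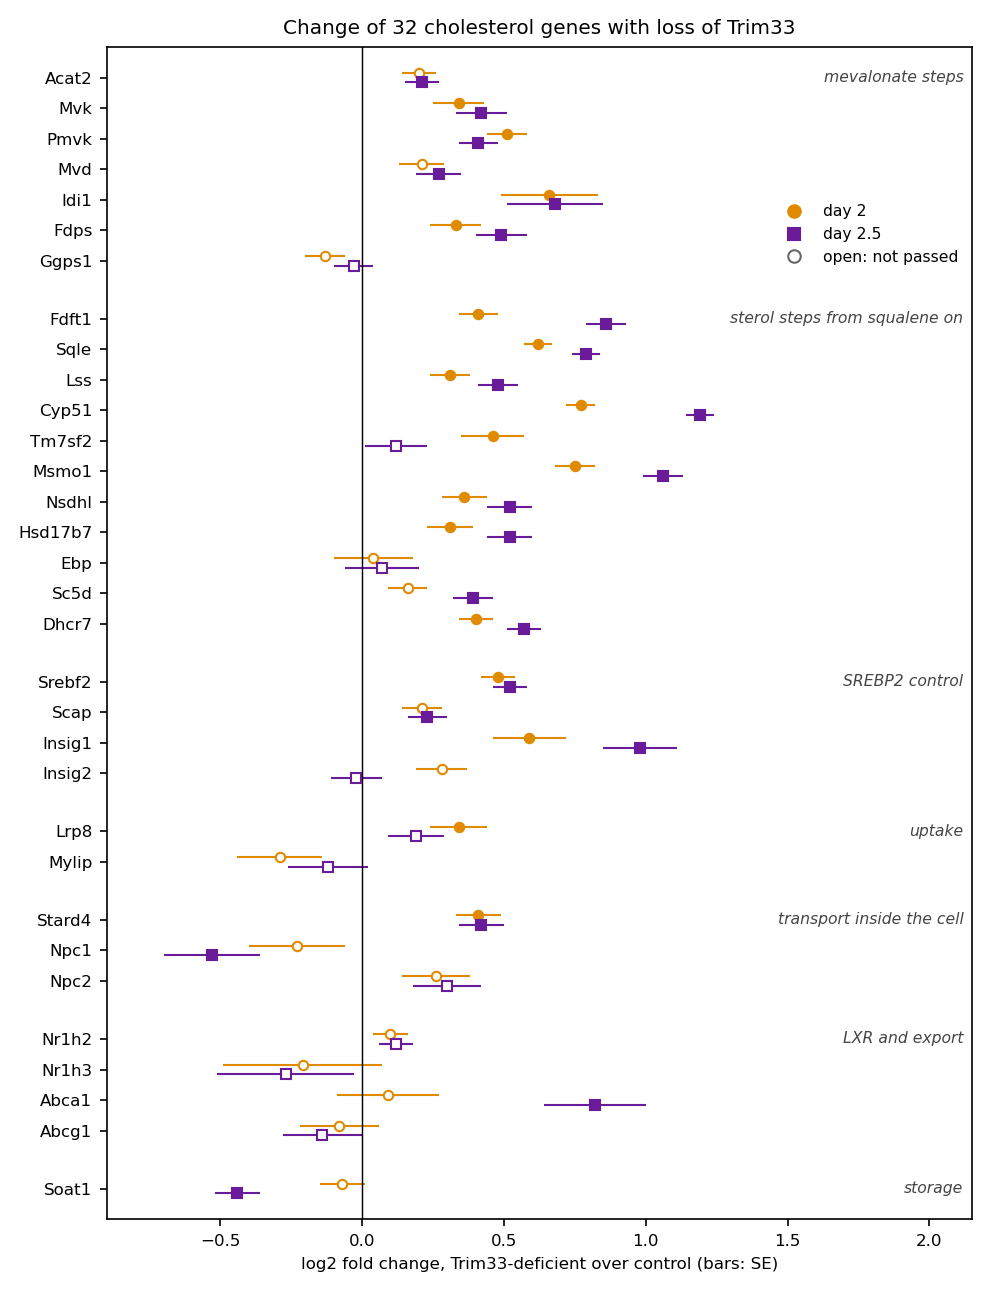
Log2 fold change of Trim33-deficient over control bodies for the 32 members tested, ordered by role, on day 2 and day 2.5; points are edgeR estimates, bars their standard errors, and filled points passed at an adjusted p under 0.05. The synthesis members spread over -0.13 to 0.77 on day 2 and -0.03 to 1.19 on day 2.5, and the uptake, transport, export and storage members over -0.29 to 0.41 and -0.53 to 0.82.

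By role, 13 of 18 synthesis members rose on day 2 and 15 of 18 on day 2.5, with median log2 fold changes of 0.35 and 0.48. Of the 10 members of uptake, transport, export and storage, 2 rose (20.0%) and 0 fell on day 2, with a median of 0.01. Of all genes tested, 5.94% rose and 3.90% fell on that day. Among the same 10 members, 2 rose and 2 fell on day 2.5, with a median of 0.00. On day 2.5 the shares of these 10 that rose and fell, 20.0% each, were near those of all genes. The difference between the roles was not tested. The mean of the tested synthesis enzymes, each set against its own mean over the 12 libraries on the log2 scale, was 0.18 to 0.31 in Trim33-deficient and -0.15 to -0.02 in control libraries on day 2, and 0.15 to 0.20 in Trim33-deficient and -0.40 to -0.26 in control libraries on day 2.5. The groups thus did not overlap on either day. The same mean over the 4 LXR and export genes was -0.06 to 0.06 in Trim33-deficient and -0.02 to 0.09 in control libraries on day 2, and 0.00 to 0.06 in Trim33-deficient and -0.19 to 0.03 in control libraries on day 2.5, and these groups overlapped on both days.

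**Figure D2:**
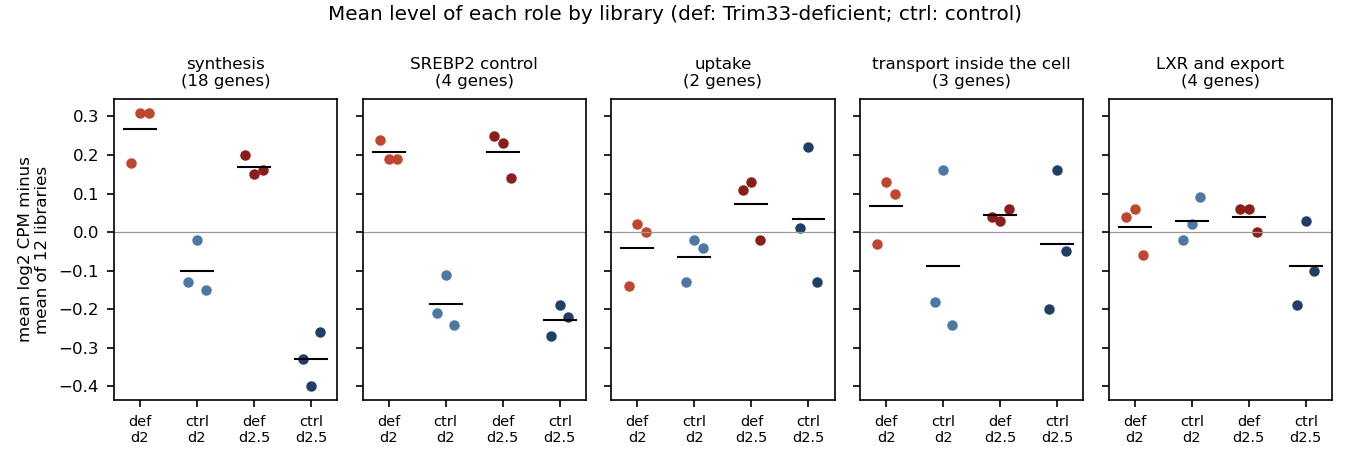
Mean log2 deviation of each role's tested genes from their mean over the 12 libraries, 1 point per library, by group. Synthesis points of Trim33-deficient libraries lie between 0.15 and 0.31 and those of control libraries between -0.40 and -0.02, while the points of uptake, transport inside the cell, and LXR and export overlap between genotypes on each day.

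In the mevalonate steps, 4 of 7 tested enzymes rose on day 2 (Mvk, Pmvk, Idi1 and Fdps) and 6 of 7 on day 2.5, when Acat2 and Mvd joined them. Pmvk, which phosphorylates mevalonate phosphate, had 49.6, 55.8 and 55.1 CPM in Trim33-deficient bodies, against 38.7, 39.1 and 35.4 CPM in control bodies on day 2, and rose by a log2 fold change of 0.51 ± 0.07 SE, adjusted p = 4.78e-04. On day 2.5 it had 43.7, 41.8 and 43.6 CPM in Trim33-deficient bodies, against 31.2, 32.2 and 34.1 CPM in control bodies (log2 fold change of 0.41 ± 0.07 SE, adjusted p = 2.70e-04). Every Trim33-deficient library stood above every control library on both days. Fdps, which joins isoprene units into farnesyl pyrophosphate, had 72.3, 91.4 and 91.5 CPM in Trim33-deficient bodies, against 61.9, 75.6 and 65.9 CPM in control bodies on day 2 (log2 fold change of 0.33 ± 0.09 SE, adjusted p = 0.0323). On day 2.5 its levels were 77, 69.4 and 76.7 CPM in Trim33-deficient bodies, against 49.7, 53.2 and 56.2 CPM in control bodies (log2 fold change of 0.49 ± 0.09 SE, adjusted p = 6.54e-04). The day 2 groups overlapped, since Trim33-deficient replicate 1 lay below control replicate 2, and the day 2.5 groups did not.

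Mvk, the mevalonate kinase, showed 32.2, 33.6 and 32.3 CPM in Trim33-deficient bodies, against 26.3, 28.4 and 22.7 CPM in control bodies on day 2 (log2 fold change of 0.34 ± 0.09 SE, adjusted p = 0.0223). The day 2.5 levels of Mvk were 30.2, 29 and 29.6 CPM in Trim33-deficient bodies, against 23.2, 19.7 and 23.1 CPM in control bodies (log2 fold change of 0.42 ± 0.09 SE, adjusted p = 0.00123). The groups were apart on both days. Idi1, which isomerises isopentenyl pyrophosphate, gave 6.36, 7.44 and 8.6 CPM in Trim33-deficient bodies, against 4.56, 5.57 and 4.17 CPM in control bodies on day 2 (log2 fold change of 0.66 ± 0.17 SE, adjusted p = 0.0230). For day 2.5 the Idi1 values were 7.78, 7.02 and 6.13 CPM in Trim33-deficient bodies, against 4.92, 3.64 and 4.34 CPM in control bodies (log2 fold change of 0.68 ± 0.17 SE, adjusted p = 0.00431). Its groups were apart too, and its standard error was the widest among the synthesis enzymes that rose on both days. The day 2 calls of Idi1 and Fdps were lost without Trim33-deficient replicate 2 or 3 or control replicate 1 or 3 of that day, and that of Mvk without any 1 of its Trim33-deficient libraries or control replicate 3 (adjusted p 0.0537 to 0.124). Ggps1, which makes geranylgeranyl pyrophosphate off the route to sterols, had the opposite sign and did not pass. It had 32, 37.8 and 37.3 CPM in Trim33-deficient bodies, against 37.2, 40.4 and 40.4 CPM in control bodies on day 2 (log2 fold change -0.13) and a log2 fold change of -0.03 on day 2.5, and its groups overlapped. Acat2, the cytosolic thiolase at the start of the route, had a log2 fold change of 0.21 ± 0.06 SE, adjusted p = 0.0148 on day 2.5, a call lost without Trim33-deficient replicate 3 (adjusted p = 0.0660). Mvd, which decarboxylates mevalonate pyrophosphate, had a log2 fold change of 0.27 on that day, a call lost without Trim33-deficient replicate 1 or 3 or control replicate 1 (adjusted p 0.0600 to 0.0790). Acat3, a close mouse relative of Acat2, fell on that day (-0.26 ± 0.05 SE on the log2 scale, with an adjusted p of 9.59e-04), and how the authors' counting split reads between such copies is not given in the sources used here.

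From squalene on, 9 of 11 enzymes rose on each day. Sc5d and Ebp did not pass on day 2, and Tm7sf2 and Ebp did not on day 2.5. Cyp51, the lanosterol demethylase, had 293, 281 and 291 CPM in Trim33-deficient bodies, against 165, 176 and 166 CPM in control bodies on day 2, a fold of 1.71 (log2 fold change of 0.77 ± 0.05 SE, adjusted p = 2.53e-07). On day 2.5 Cyp51 had 358.5, 338 and 314.5 CPM in Trim33-deficient bodies, against 149.6, 143 and 149.7 CPM in control bodies, a fold of 2.28 (log2 fold change of 1.19 ± 0.05 SE, adjusted p = 4.44e-10). The lowest Trim33-deficient library stood well above the highest control library on both days, and the spread within each group was small beside that gap. Msmo1, which oxidises the methyl groups of lanosterol's products, had 203, 210.0 and 201 CPM in Trim33-deficient bodies, against 116, 129 and 118 CPM in control bodies on day 2 (log2 fold change of 0.75 ± 0.07 SE, adjusted p = 7.44e-06). Its day 2.5 levels were 216, 192 and 187 CPM in Trim33-deficient bodies, against 90.4, 89.6 and 105 CPM in control bodies, a fold of 2.08 (log2 fold change of 1.06 ± 0.07 SE, adjusted p = 3.15e-08). Here too the groups were apart on both days.

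Sqle, squalene epoxidase, an oxygen-using and rate-limiting enzyme, had 255, 268 and 272 CPM in Trim33-deficient bodies, against 177, 174.5 and 166 CPM in control bodies on day 2 (log2 fold change of 0.62 ± 0.05 SE, adjusted p = 2.72e-06). Day 2.5 gave 259.6, 266 and 286 CPM in Trim33-deficient bodies, against 162, 148 and 158 CPM in control bodies for Sqle (log2 fold change of 0.79 ± 0.05 SE, adjusted p = 3.11e-08). Fdft1, squalene synthase, which commits farnesyl pyrophosphate to sterols, had 133, 149 and 146 CPM in Trim33-deficient bodies, against 99.9, 119.9 and 102 CPM in control bodies on day 2 (log2 fold change of 0.41 ± 0.07 SE, adjusted p = 0.00221). The 3 Trim33-deficient libraries of each gene lay above the 3 control libraries, and the gap for Fdft1 was wider on day 2.5. There Fdft1 had 141, 133 and 129 CPM in Trim33-deficient bodies, against 70.2, 74.7 and 77 CPM in control bodies, a fold of 1.81 (log2 fold change of 0.86 ± 0.07 SE, adjusted p = 3.60e-07). Dhcr7, a reductase at the end of the route, had 145, 147 and 147 CPM in Trim33-deficient bodies, against 103, 117 and 111 CPM in control bodies on day 2 (log2 fold change of 0.40 ± 0.06 SE, adjusted p = 9.53e-04). For day 2.5 its levels were 142, 130.1 and 133 CPM in Trim33-deficient bodies, against 84.6, 89.9 and 98 CPM in control bodies (log2 fold change of 0.57 ± 0.06 SE, adjusted p = 3.74e-06), again without overlap.

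Lss, lanosterol synthase, Nsdhl and Hsd17b7, which strip methyl groups with Msmo1, rose on both days, with log2 fold changes of 0.31 to 0.36 on day 2 and 0.48 to 0.52 on day 2.5. The day 2 calls of Lss and Hsd17b7 were lost without Trim33-deficient replicate 2 or control replicate 3 of that day, and that of Hsd17b7 also without Trim33-deficient replicate 3 or control replicate 1 (adjusted p 0.0542 to 0.126). Sc5d, a sterol desaturase, had log2 fold changes of 0.16 on day 2, which did not pass, and 0.39 on day 2.5, which did (adjusted p = 2.85e-04). Tm7sf2, a sterol reductase, had 17.2, 20.1 and 18.4 CPM in Trim33-deficient bodies, against 12.5, 14.3 and 13.9 CPM in control bodies on day 2 (log2 fold change of 0.46 ± 0.11 SE, adjusted p = 0.0193), a call lost without Trim33-deficient replicate 2 or control replicate 1 or 3 of that day (adjusted p 0.0553 to 0.0844). Its log2 fold change of 0.12 on day 2.5 did not pass and its groups overlapped. Ebp, a sterol isomerase, had log2 fold changes of 0.04 and 0.07, neither of which passed. Whether counting used strand is not given in the sources used here, so genes whose exons overlap another gene are uncertain. In GENCODE M21, Cyp51 shares 166 exon bases with Akap9 on the opposite strand, and Akap9 had log2 fold changes of 0.03 on day 2, which did not pass, and 0.32 on day 2.5, which did. Fdft1 shares 774 with Ctsb on the opposite strand, and Ctsb had 0.09 and 0.17, neither of which passed. Lss shares 381 with 4930483K19Rik on the opposite strand, which rose on both days, by 0.59 and 0.39. Tm7sf2 shares 14 with Vps51 on the same strand, and Vps51 had 0.00, not passed, and -0.28, which passed. Fdps shares 1124 with Gm43738 on the same strand, Idi1 323 with Gm48574 on the opposite strand, Hmgcs1 557 with Gm48342 on the opposite strand, and Npc1 192 with Rmc1 and 90 with Gm15956 on the opposite strand, none of which had counts used here.

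**Figure D3:**
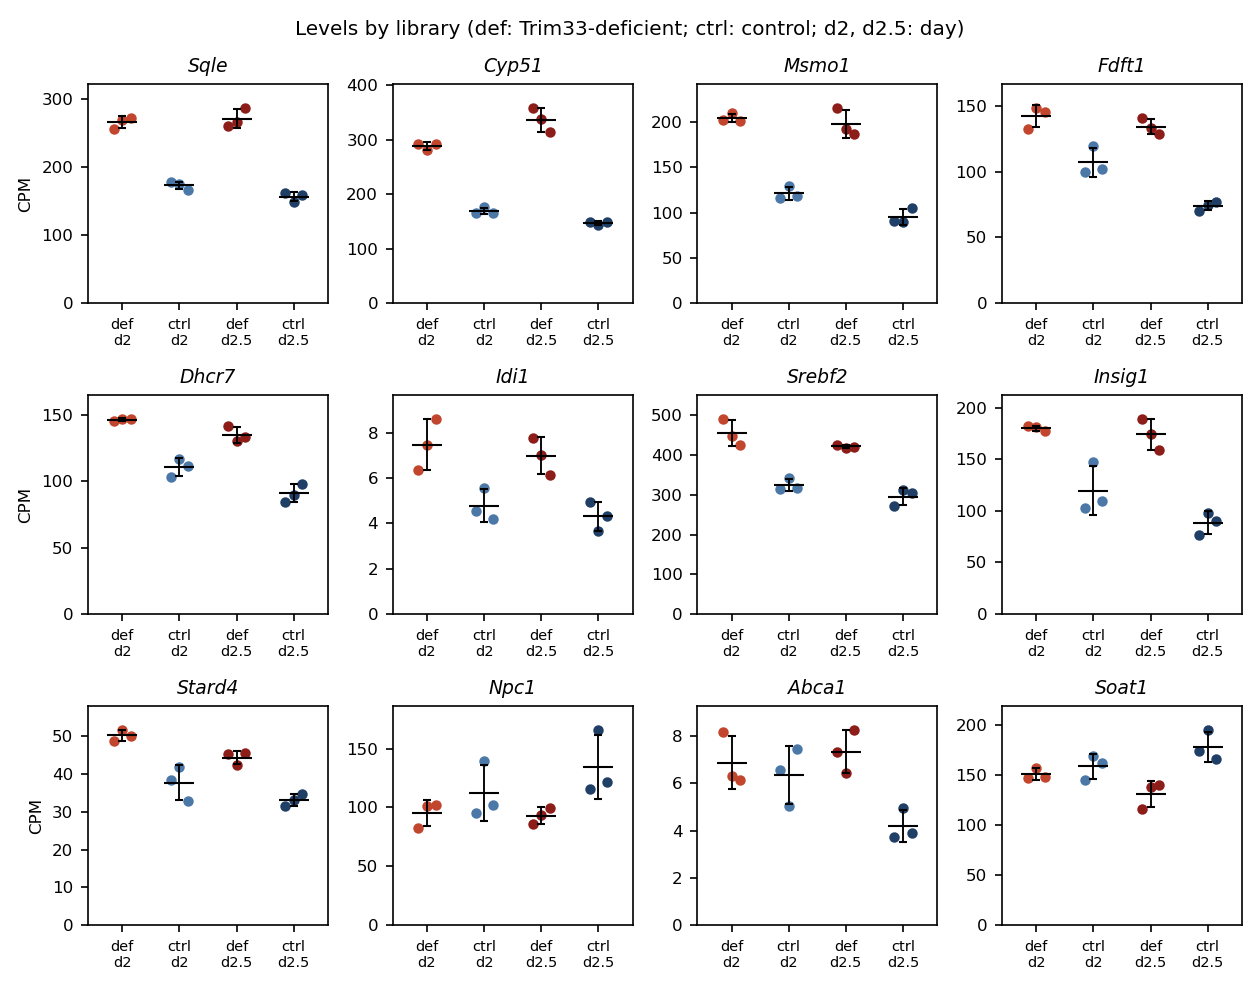
Level in CPM of 12 members in each of the 12 libraries, 1 point per library, by group; lines are group means, bars their SD, and each axis starts at 0. Cyp51, Msmo1, Sqle and Fdft1 are separated by genotype on both days, while Abca1 and Soat1 are separated on day 2.5 alone.

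Stretches of promoter are shown for 5 members, to set 1 fixed form of the letters that SREBP2 and its partner NF-Y are each known to read beside the genes that moved together. Mvk, Cyp51 and Nsdhl stand for the synthesis enzymes that rose on both days and Abca1 for the exporters; these 4 were chosen after their values were seen. Hmgcs1 is shown because it alone matched the form searched for SREBP2, TCACNCCAC, although its row was listed at 0. Each is the 150 bases just before the start site of the gene's RefSeq promoter window on GRCm38.p6, read 5′ to 3′ on the gene's own strand, with matches to TCACNCCAC or CCAAT, on either strand, in capitals. For Mvk and Abca1 the annotated gene extends past that start site, so that part of the stretch lies inside the gene. They lie at chr13:119690201-119690350 (Hmgcs1, plus strand), chr5:114444119-114444268 (Mvk, plus strand), chr5:4104698-4104847 (Cyp51, minus strand), chrX:72918371-72918520 (Nsdhl, plus strand) and chr4:53159896-53160045 (Abca1, minus strand).
Hmgcs1: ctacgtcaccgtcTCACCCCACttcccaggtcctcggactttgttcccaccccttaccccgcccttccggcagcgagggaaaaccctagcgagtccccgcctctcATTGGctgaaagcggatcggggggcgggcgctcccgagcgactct
Mvk: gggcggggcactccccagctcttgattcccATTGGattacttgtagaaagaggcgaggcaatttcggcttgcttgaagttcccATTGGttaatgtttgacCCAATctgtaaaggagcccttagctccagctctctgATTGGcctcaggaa
Cyp51: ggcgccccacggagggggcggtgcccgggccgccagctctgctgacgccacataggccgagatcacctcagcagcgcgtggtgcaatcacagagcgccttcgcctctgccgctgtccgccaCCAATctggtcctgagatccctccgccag
Nsdhl: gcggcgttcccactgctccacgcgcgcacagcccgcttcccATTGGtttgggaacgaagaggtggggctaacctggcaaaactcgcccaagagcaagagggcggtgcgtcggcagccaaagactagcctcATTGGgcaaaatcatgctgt
Abca1: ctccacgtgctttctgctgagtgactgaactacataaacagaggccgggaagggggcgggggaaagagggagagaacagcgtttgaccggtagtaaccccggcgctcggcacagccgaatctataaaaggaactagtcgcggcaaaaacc
In the stretches shown, Mvk held 4 matches to CCAAT, Nsdhl 2, Cyp51 1 and Hmgcs1 1, and Hmgcs1 also held the match to TCACNCCAC; Abca1 held neither. RefSeq windows of 300 bases, 250 before to 50 after a start, were found for 27 of the 33 members; some genes have several, and a gene counted as holding a motif where any of its windows did. CCAAT, searched on both strands, was held by 15 of 16 synthesis genes (93.8%), all but Acat2, and by 11096 of 27025 genes in all (41.1%). It was held by 3 of 4 genes of SREBP2 control and 3 of 7 genes of uptake, transport, export and storage, and by 0 of the 3 LXR and export genes with a window, Abca1, Nr1h2 and Nr1h3. TCACNCCAC, on both strands, was held by 1 of 27 members and by 388 of 27025 genes in all (1.44%). In the Hmgcs1 stretch shown, the matches to the 2 motifs do not overlap. A match describes the letters of the window and is no measure of binding. Other forms of either motif were not searched, so a window without a match was not shown to lack sites for SREBP2 or NF-Y. The members without a window were Fdps, Fdft1, Sqle, Stard4, Npc1 and Abcg1.

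Among the genes that control SREBP2, 2 of 4 rose on day 2 and 3 of 4 on day 2.5. Srebf2, which encodes SREBP2 and is itself a target of SREBP2, had 491, 448 and 426 CPM in Trim33-deficient bodies, against 315, 343 and 316.5 CPM in control bodies on day 2 (log2 fold change of 0.48 ± 0.06 SE, adjusted p = 2.32e-04). Its day 2.5 levels were 425, 419 and 421 CPM in Trim33-deficient bodies, against 271, 311 and 303.5 CPM in control bodies (log2 fold change of 0.52 ± 0.06 SE, adjusted p = 9.24e-06). The groups were apart on both days. Insig1, which retains SCAP in the endoplasmic reticulum and is a target of SREBP2, had 182, 181 and 177 CPM in Trim33-deficient bodies, against 102.5, 147 and 109 CPM in control bodies on day 2 (log2 fold change of 0.59 ± 0.13 SE, adjusted p = 0.0162). On day 2.5 Insig1 had 189, 174 and 159 CPM in Trim33-deficient bodies, against 76.4, 98.2 and 90.3 CPM in control bodies, a fold of 1.97 (log2 fold change of 0.98 ± 0.13 SE, adjusted p = 1.13e-04). Its groups were apart, but control replicate 2, which was high in the hypoxia list on both days, was the highest control library each time. The day 2 call of Insig1 was lost without Trim33-deficient replicate 1 or control replicate 3 (adjusted p 0.0605 and 0.0667).

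Insig2, the form that is not driven by SREBP2, did not pass on either day. It had 20.4, 22.6 and 24.5 CPM in Trim33-deficient bodies, against 19, 18 and 18.9 CPM in control bodies on day 2 (log2 fold change 0.28, adjusted p = 0.0619) and a log2 fold change of -0.02 on day 2.5. The day 2 groups were apart and the day 2.5 groups overlapped. Scap, the sterol sensor that escorts SREBP2, had 83.9, 73.4 and 72.8 CPM in Trim33-deficient bodies, against 72, 64.7 and 61.9 CPM in control bodies on day 2 (log2 fold change 0.21, adjusted p = 0.0891, not passed). For day 2.5 Scap gave 87.5, 82.5 and 83 CPM in Trim33-deficient bodies, against 77.3, 71.4 and 66.8 CPM in control bodies (log2 fold change of 0.23 ± 0.07 SE, adjusted p = 0.0175), without overlap; that call was lost without Trim33-deficient replicate 1 or control replicate 3 (adjusted p 0.0731 and 0.0988). Scap shares 785 exon bases with a gene on the opposite strand in GENCODE M21, 5830462I19Rik, for which no counts were used here.

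Of the 2 members of uptake, Lrp8, a receptor for reelin and apolipoprotein E, had 27.2, 30.4 and 29.4 CPM in Trim33-deficient bodies, against 22.5, 24.3 and 22 CPM in control bodies on day 2 (log2 fold change of 0.34 ± 0.10 SE, adjusted p = 0.0424). That call was lost under 8 of 21 alternative settings, 7 of which left out 1 library, among them each Trim33-deficient library and control replicates 1 and 3 of day 2 (adjusted p 0.0504 to 0.14 over the 8). On day 2.5 its log2 fold change of 0.19 did not pass (adjusted p = 0.145), and passed without Trim33-deficient replicate 3 or control replicate 2 (adjusted p 0.0465 and 0.0364). Mylip, a ligase that degrades lipoprotein receptors and is switched on by liver X receptors, had 6.36, 7.13 and 7.19 CPM in Trim33-deficient bodies, against 7.85, 8.51 and 9.05 CPM in control bodies on day 2 (log2 fold change -0.29, not passed) and a log2 fold change of -0.12 on day 2.5 (not passed). Its day 2 groups were apart and its day 2.5 groups overlapped.

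Transport inside the cell held genes that moved in different directions. Stard4, a cytosolic sterol carrier and a target of SREBP2, had 48.8, 51.7 and 50.2 CPM in Trim33-deficient bodies, against 38.5, 41.9 and 32.8 CPM in control bodies on day 2 (log2 fold change of 0.41 ± 0.08 SE, adjusted p = 0.00598). On day 2.5 it stood at 45.3, 42.3 and 45.5 CPM in Trim33-deficient bodies, against 31.6, 33 and 34.7 CPM in control bodies (log2 fold change of 0.42 ± 0.08 SE, adjusted p = 6.39e-04). Groups did not overlap on either day, and the call held under all 21 alternatives on each. Npc1, the membrane protein that moves cholesterol out of lysosomes, had 82.4, 101 and 102 CPM in Trim33-deficient bodies, against 95.6, 139.5 and 102 CPM in control bodies on day 2 (log2 fold change -0.23, not passed). On day 2.5 it fell, with 86, 93.5 and 99.8 CPM in Trim33-deficient bodies, against 116, 166 and 122 CPM in control bodies (log2 fold change of -0.53 ± 0.17 SE, adjusted p = 0.0302). The highest control library on both days was replicate 2; without day 2.5 control replicate 2 the log2 fold change was -0.34 and did not pass (adjusted p = 0.103). The call was also lost without day 2.5 Trim33-deficient replicate 1 or 2 (adjusted p 0.0943 and 0.0661) and with no filter on low counts (adjusted p = 0.0604). Npc2, the soluble lysosomal protein that hands cholesterol to NPC1, went the other way in value, with 168, 164 and 151 CPM in Trim33-deficient bodies, against 109.9, 153 and 129.8 CPM in control bodies on day 2.5 (log2 fold change 0.30, adjusted p = 0.0608, not passed). Its groups overlapped through the same control library, and without it Npc2 passed, at a log2 fold change of 0.43 (adjusted p = 0.00733). DESeq2 also called it (adjusted p = 0.0268), as did 6 of 21 alternatives in all. On day 2 Npc2 had 143, 153.5 and 145 CPM in Trim33-deficient bodies, against 113, 145 and 111 CPM in control bodies (log2 fold change 0.26, not passed); without day 2 control replicate 2 it passed at 0.40 (adjusted p = 0.0343).

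The level in control replicate 2 over the mean of control replicates 1 and 3 was 1.41 on day 2 and 1.40 on day 2.5 for Npc1, 1.38 and 1.38 for Abcg1, 1.30 and 1.28 for Npc2, and 1.39 and 1.18 for Insig1. These 4 were chosen after their values were seen. The same control libraries had the highest levels of the hypoxia and glycolysis list, and the part of that state in these genes was not tested.

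**Figure D4:**
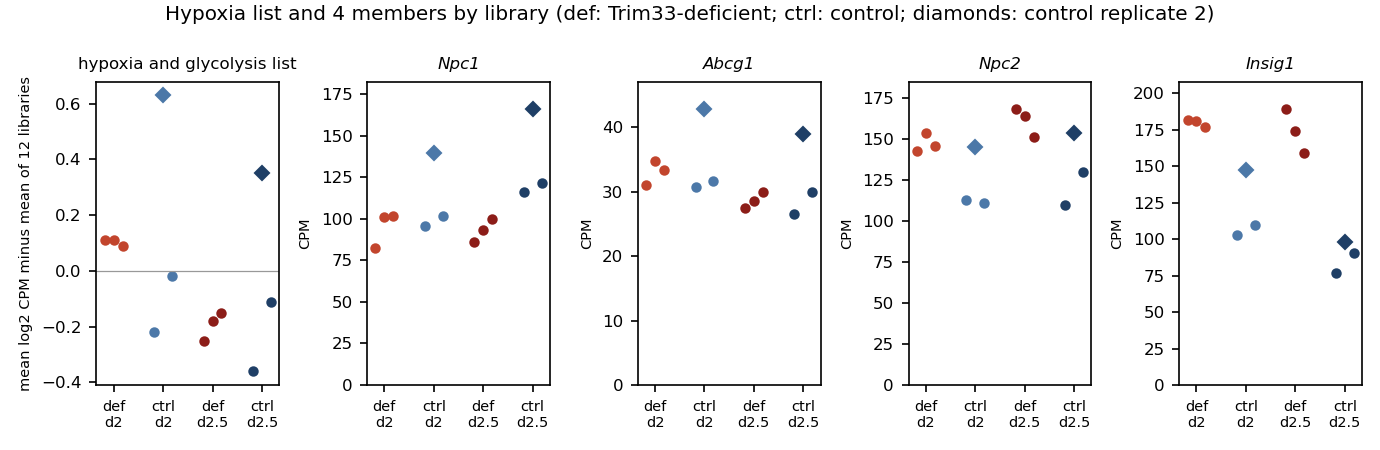
Mean log2 deviation of the hypoxia and glycolysis list and levels in CPM of Npc1, Abcg1, Npc2 and Insig1, 1 point per library, by group, with control replicate 2 as diamonds. The diamonds are the highest control points in all panels on both days, at 0.63 and 0.35 for the list; the plot is a description, with no test.

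Of the 4 LXR and export genes, 0 passed on day 2, also at an unadjusted p under 0.05 and by DESeq2, and 1 rose on day 2.5 (25.0%). Of all genes tested, 5.94% rose and 3.90% fell on day 2, and 22.0% rose on day 2.5. With only 4 genes, neither count stands apart from these shares. Abca1, which exports cholesterol to apolipoprotein A-I, had 8.17, 6.31 and 6.15 CPM in Trim33-deficient bodies, against 6.57, 5.03 and 7.48 CPM in control bodies on day 2, with overlapping groups (log2 fold change 0.09, not passed). On day 2.5 it had 7.35, 6.44 and 8.27 CPM in Trim33-deficient bodies, against 3.74, 4.97 and 3.9 CPM in control bodies, a fold of 1.77 (log2 fold change of 0.82 ± 0.18 SE, adjusted p = 0.00180). The day 2.5 groups were apart, and the call held under all 21 alternatives. Abcg1, an exporter to high-density lipoprotein, had 27.5, 28.5 and 30.0 CPM in Trim33-deficient bodies, against 26.6, 39 and 30.0 CPM in control bodies on day 2.5 (log2 fold change -0.14, not passed). Its day 2 values were 31, 34.8 and 33.3 CPM in Trim33-deficient bodies, against 30.7, 42.8 and 31.6 CPM in control bodies (log2 fold change -0.08, not passed), and its groups overlapped on both days.

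Nr1h2, the widely expressed liver X receptor, had log2 fold changes of 0.10 and 0.12 on day 2 and day 2.5, and neither passed. It had 108, 104 and 105 CPM in Trim33-deficient bodies, against 94.7, 105 and 96 CPM in control bodies on day 2 and 94, 85.1 and 92.4 CPM in Trim33-deficient bodies, against 81, 80.9 and 88 CPM in control bodies on day 2.5. Nr1h3, the receptor known from liver and macrophages, was at low levels, with 1.17, 1.5 and 1.11 CPM in Trim33-deficient bodies, against 1.44, 1.31 and 1.65 CPM in control bodies on day 2 and 1.82, 2.27 and 1.25 CPM in Trim33-deficient bodies, against 2.17, 2.04 and 2.14 CPM in control bodies on day 2.5; a count of 3 corresponds to 0.181 to 0.298 CPM here. Its log2 fold changes of -0.21 and -0.27 did not pass. Soat1, which esterifies cholesterol for storage, had 147.5, 158 and 148 CPM in Trim33-deficient bodies, against 145, 169 and 162 CPM in control bodies on day 2, with overlapping groups (log2 fold change -0.07, not passed). On day 2.5 Soat1 fell, with 116, 138 and 139.9 CPM in Trim33-deficient bodies, against 174, 195.5 and 167 CPM in control bodies (log2 fold change of -0.44 ± 0.08 SE, adjusted p = 3.71e-04). No Trim33-deficient library then reached the lowest control library, and the call held under all 21 alternatives.

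The interval between the sampling days bears on how the pathway moves as bodies differentiate. These comparisons use the libraries of the genotype comparisons, so their values are given side by side and are no separate evidence. In Trim33-deficient bodies 5 members fell on day 2.5 relative to day 2 (Acat2, Pmvk, Mvd, Lss and Nr1h2; 15.6%) and 1 rose (Cyp51; 3.12%), where 6.93% of all genes fell and 9.09% rose. In control bodies 11 members fell (34.4%) and 1 rose (3.12%), where 7.91% of all genes fell and 8.20% rose. The 11 were Acat2, Mvd, Fdps, Fdft1, Lss, Cyp51, Msmo1, Dhcr7, Insig1, Nr1h2 and Abca1, and Insig2 rose. Of the 18 synthesis enzymes, 4 fell and 1 rose in Trim33-deficient bodies, with a median of -0.10, and 8 fell and 0 rose in control bodies, with a median of -0.22. No synthesis enzyme was higher on day 2.5 in control bodies at an unadjusted p under 0.05 or by DESeq2. Calls that held under every alternative were those of Pmvk, Lss and Cyp51 in Trim33-deficient bodies and of Acat2, Mvd, Fdft1, Lss, Msmo1 and Dhcr7 in control bodies.

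Cyp51 took a different course in the 2 genotypes. It rose by a log2 fold change of 0.22 ± 0.05 SE in Trim33-deficient bodies (adjusted p = 0.00688) and fell by 0.20 ± 0.05 in control bodies (adjusted p = 0.0177); the fall in control bodies did not pass without control replicate 2 of either day. The change of the genotype difference between days, tested as an interaction, was 0.42 ± 0.07 (adjusted p = 0.00719) and held under all 20 alternatives. Fdft1 had a log2 fold change of -0.09 ± 0.07 in Trim33-deficient bodies, which did not pass, and fell by 0.54 ± 0.07 in control bodies (adjusted p = 1.73e-04). Its interaction was 0.45 ± 0.10 (adjusted p = 0.0213). That call was lost without day 2 Trim33-deficient replicate 3, without day 2.5 Trim33-deficient replicate 1 and without day 2.5 Trim33-deficient replicate 2. For Ctsb, which shares exon bases with Fdft1, the interaction was 0.08 and did not pass, and for Akap9, which shares them with Cyp51, it was 0.28 and did not pass.

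These 2 were the only members of 32 to pass the interaction test in edgeR (6.25%), both upward, where 2.77% of all genes passed upward and 1.24% downward. No member passed downward; Insig2 and Soat1 did at an unadjusted p under 0.05, and DESeq2 called 1. The interaction estimate was above 0 for 16 of 18 synthesis enzymes, with a median of 0.16, where that over all genes was 0.00. These enzymes were measured in the same libraries, so the number above 0 is no separate evidence. Abca1 had 0.73 ± 0.25 (adjusted p = 0.113) and Soat1 -0.37 ± 0.11 (adjusted p = 0.0716), so the interaction did not pass for either, although each passed on day 2.5 alone. Without day 2 control replicate 2 both passed (adjusted p 0.0361 and 0.0328).

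**Figure D5:**
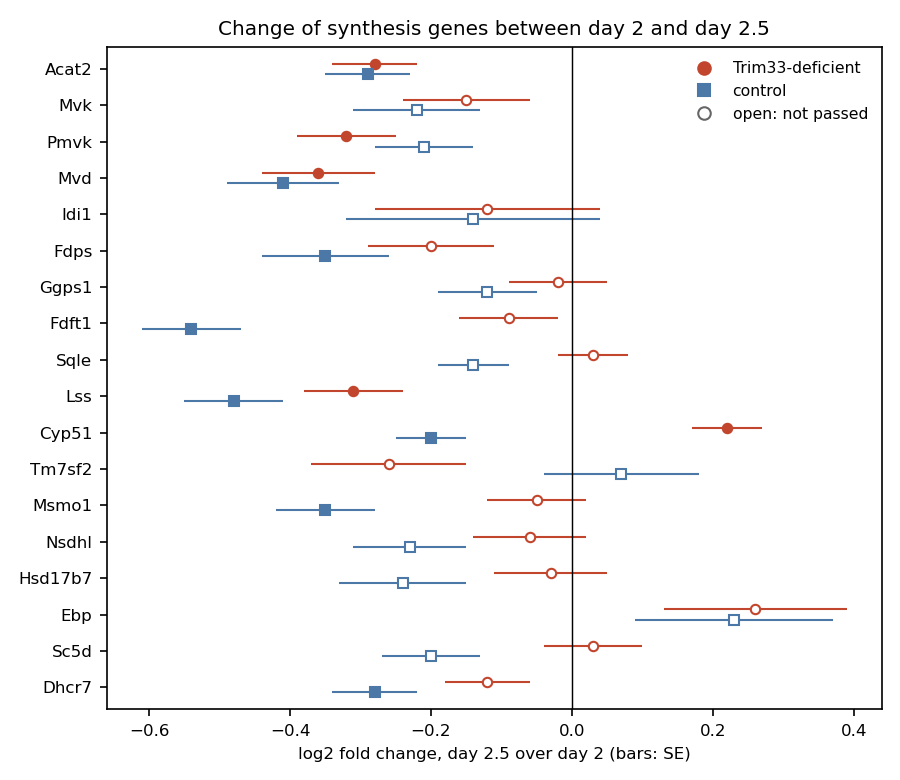
Log2 fold change of day 2.5 over day 2 for each tested synthesis enzyme, in Trim33-deficient and in control bodies; bars are standard errors and filled symbols passed. Trim33-deficient values are below 0 for 14 of 18 enzymes and control values for 16 of 18, and Cyp51 is above 0 in Trim33-deficient bodies and below 0 in control bodies.

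Genes next to the pathway were counted in lists that were not part of the 33. The isoprenoid branch included genes that attach farnesyl and geranylgeranyl groups to proteins, among others. In it, 0 of 11 passed on day 2 by edgeR or DESeq2 (3 at an unadjusted p under 0.05), where 5.94% of all genes rose and 3.90% fell. On day 2.5, 3 rose (27.3%) and 1 fell (9.09%), where 22.0% and 20.7% of all genes did. Fnta, the alpha subunit shared by prenyltransferases, fell on day 2.5 by 0.37 ± 0.06 SE in log2 units (adjusted p = 1.38e-04), Fntb, the farnesyltransferase beta subunit, rose by 0.24 and Icmt, which methylates prenylated proteins, by 0.16. Of 8 genes of SREBP processing and sterol sensing, Erlin1 fell on day 2 (12.5%, where 3.90% of all genes did). On day 2.5 Pgrmc1 and Srebf1 rose (0.21 and 0.16), a share of 25.0% that is near that of all genes, and 1 gene fell (12.5%). DESeq2 called 1 rise and 1 fall in this list on day 2.5. Of 14 tested genes of other sterol handling, Osbp and Lbr rose on day 2 (14.3%, where 5.94% of all genes did). On that day 0 fell, also by DESeq2 and at an unadjusted p under 0.05. The day 2 call of Osbp held under all 21 alternatives and that of Lbr under 12. On day 2.5, 5 rose (35.7%) and 2 fell (14.3%). By adjusted p on day 2.5, though not by fold, Osbp, an oxysterol-binding transport protein, came first (log2 fold change 0.26 on day 2 and 0.39 on day 2.5), followed by Lbr, a nuclear envelope protein with sterol reductase activity (0.14 and 0.21), and Cyp7b1, an oxysterol hydroxylase (0.52, not passed, and 0.81). Of 11 genes of fatty acid synthesis, the branch driven by SREBP1, Elovl6, Scd1 and Scd2 rose on day 2 (27.3%), where 5.94% of all genes did. The day 2 call of Elovl6 held under all 21 alternatives, that of Scd2 under 16 and that of Scd1 under 12, and the Scd2 groups overlapped. On day 2.5, 5 rose (45.5%) and 1 fell (9.09%). Elovl6, a fatty acid elongase, had log2 fold changes of 0.44 and 0.58, Fasn, fatty acid synthase, 0.23 (not passed) and 0.43, and Acss2, which makes acetyl-CoA from acetate, -0.06 (not passed) and -0.65. The medians of these 2 lists on day 2.5 were 0.03 and 0.11.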

How the data were processed

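RNA was sequenced from embryoid bodies in 12 libraries, 3 in each of 4 groups. The authors deposited 1 table of unnormalised read counts by gene symbol for each library; STAR, HTSeq, DESeq and the build mm9 are named in the submitters' processing notes. Versions of these tools, the gene annotation, whether counting used strand and how multi-mapping reads were handled: not given in the sources used here. Each table ends in 5 rows without a gene, which entered neither library sizes nor tests: reads in no feature made up 55.9 to 60.5% of those counted, ambiguous reads 0.144 to 0.189%, and assigned reads 39.3 to 43.9%. In day 2.5 Trim33-deficient replicate 1, 27 names altered by a spreadsheet were restored by row position.

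The members, roles, lists and tests were chosen with earlier results of these data known, and some genes of the pathway and of the neighbouring lists are not analysed or not reported here. All 14356 genes that passed filterByExpr were fitted in edgeR 4.0.16 (limma 3.58.1, R 4.3.3) with TMM factors and a robust quasi-likelihood model of 4 group means, leaving 8 residual degrees of freedom; replicate number was not a term. Benjamini-Hochberg adjustment ran over all genes tested in each comparison, and the threshold was 0.05. SE is the log2 fold change divided by the square root of its F statistic. The scripts were tested on simulated data.

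Values in every library are given, per role, for up to 4 members with the smallest adjusted p on either day, for members past the interaction threshold, and for members whose direction differs from most of their role; Acat2, Mvd, Lss, Nsdhl, Hsd17b7, Sc5d and Ebp are summarised. Neighbouring lists name up to 3 genes by smallest adjusted p on day 2.5, and Erlin1, Scd1, Scd2 and the 5 endoderm markers that passed on day 2.5 were named after their values were seen, as was the Tm7sf2 series of values. A count of 3, the floor, equals 0.181 to 0.298 CPM and covers counting error only. Alternatives were DESeq2 1.42.0, other size factors, filters, fits of the compared libraries only, a replicate block, and leaving out libraries. Promoter windows and their coordinates are RefSeq's on GRCm38.p6; exon overlaps come from GENCODE M21.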

Additional observations from a re-analysis of the deposited data

Results flagged for a closer look

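For 2 members the difference between Trim33-deficient and control bodies was larger on day 2.5 than on day 2 by the interaction test (edgeR's quasi-likelihood test). The difference of log2 fold changes was 0.42 for Cyp51, the lanosterol demethylase, and 0.45 for Fdft1, squalene synthase. Fdft1 did not pass when day 2 Trim33-deficient replicate 3, day 2.5 Trim33-deficient replicate 1 or day 2.5 Trim33-deficient replicate 2 was left out.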

How the results depend on the processing

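The synthesis members that rose on day 2.5 numbered 13 to 15 when single libraries were left out; day 2 was less stable, and the cause was not tested. With 1 library left out at a time, the members that rose numbered 9 to 20 on day 2 (synthesis 7 to 15; uptake, transport, export and storage 1 to 3, and 2 to 4 on day 2.5), and those that fell on day 2.5 numbered 1 to 2. For day 2.5 relative to day 2, 1 to 2 members rose and 3 to 6 fell in Trim33-deficient bodies, and 0 to 1 rose in control bodies; in the interaction, 1 to 3 passed upward and 0 to 1 downward. Genes of the whole table past the threshold then numbered 514 to 1617 on day 2 (1413 with all libraries), 1101 to 2780 in the time comparison of Trim33-deficient bodies (2300), 1235 to 2393 in that of control bodies (2313) and 119 to 1217 in the interaction (575). Without the 3 libraries that stood apart, 4 members of uptake, transport, export and storage rose on day 2.5; 2 members rose and 9 fell over time in Trim33-deficient bodies (3741 genes of the whole table passed), 2 rose in control bodies, and 2 passed downward in the interaction (1967 genes). With only the compared libraries fitted, 2 members rose over time in Trim33-deficient bodies and 0 in control bodies (1384 genes). DESeq2 gave 0 members that rose over time in control bodies and 1 that passed downward in the interaction. With no filter on low counts 1 member fell on day 2.5, and with upper-quartile size factors 1 member of uptake, transport, export and storage rose on day 2. Deviations of same-numbered libraries from their group means correlated at -0.079 to 0.172 between genotypes on day 2 and at -0.033 to -0.009 on day 2.5, and across days at -0.018 to 0.182 in Trim33-deficient and 0.032 to 0.451 in control bodies (over 0.1 in 2 of 3 control pairs); no set of pairs was over 0.1 throughout, so the numbers were not taken to pair libraries; with a replicate block 19 members rose on day 2, 2 rose over time in control bodies, 1 passed downward in the interaction, and 1169 genes passed the interaction. Of the single-gene values recomputed under alternatives, 3200 kept their call (higher, lower or not passed), 80 lost a pass and 48 gained one. In 0 did a value that passed in either fit change sign. Values that passed in neither fit were not compared by sign, and some changed it. Npc2 over time in control bodies went from a log2 fold change of 0.09 to -0.04 without day 2.5 control replicate 2. Depth limits Nr1h3, at 1.11 to 2.27 CPM, and among genes outside the 33 also Soat2, at 0.567 to 1.70 CPM.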

Other observations

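Soat2, the esterifying enzyme known mainly from liver and intestine, was chosen after its values were seen. It had 1.60, 1.61 and 1.19 CPM in Trim33-deficient bodies, against 0.591, 0.622 and 0.567 CPM in control bodies on day 2.5, and rose (log2 fold change 1.29 ± 0.29 SE, adjusted p = 0.00209 by edgeR's quasi-likelihood test), on the day when Soat1, its widely expressed relative, fell. On day 2 it had 1.17, 0.875 and 1.23 CPM in Trim33-deficient bodies, against 1.28, 1.70 and 1.57 CPM in control bodies, which did not pass. Its interaction was 1.78 ± 0.39 (adjusted p = 0.0223), a call that held under 13 of 19 alternatives and that DESeq2 did not make. Depth limits these values, since a count of 3 equals 0.181 to 0.298 CPM.

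Lrp1, a large lipoprotein receptor, had a log2 fold change of 0.49 ± 0.12 SE on day 2.5 and rose (adjusted p = 0.00472). Lipa, the lysosomal lipase that frees cholesterol from its esters, fell there (-0.52 ± 0.11, adjusted p = 0.00119). Both values come from edgeR's quasi-likelihood test. Lrp1 had 126.7, 124.9 and 141.5 CPM in Trim33-deficient bodies, against 93.4, 107.0 and 80.7 CPM in control bodies. Lipa had 8.73, 10.1 and 10.2 CPM in Trim33-deficient bodies, against 13.3, 14.8 and 13.6 CPM in control bodies. The groups of both genes were apart on that day, and both were chosen after their values were seen.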
